A study of Mus musculus with 12 samples.

Results

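Transcripts of 10 core circadian clock genes were followed in mouse kidney with and without ischemia-reperfusion (I/R) injury. The genes were Arntl, Clock, Npas2, Nr1d1, Nr1d2, Per1, Per2, Per3, Cry1 and Dbp. They were chosen by name as rows of the count table, and all 10 were found among its 55487 gene identifiers. In GRCm38 (GENCODE M21) they lie on chromosome 1 (Npas2, Per2), 4 (Per3), 5 (Clock), 7 (Arntl at chr7:113207465-113314126 and Dbp at chr7:45705088-45710203), 10 (Cry1), 11 (Nr1d1, Per1) and 14 (Nr1d2). Each of the 10 passed the filter on low counts in every comparison below. The question was whether the 4 groups of kidneys differed in the state of the clock, that is, in its phase or its amplitude.

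The 12 libraries, 3 per group, came from tissue labelled kidney cortex. Control mice carried the floxed ALR gene (ALR flox/flox, labelled WT), where ALR is augmenter of liver regeneration, encoded by Gfer. Knockout mice (labelled ALR knockdown) carried the same floxed alleles with Ggt1-Cre, a transgene that acts in the proximal tubule and leaves other kidney cells with the gene. Mice without I/R are called Control and KO after the sample titles, and sham below means only that they had no I/R. Mice whose 2 kidneys were clamped for 22 min and then reperfused for 24 h are called Control-IR and KO-IR. The mice were on a C57BL/6 background and 6–8 weeks old. The hour of day at which kidneys were taken is not given in the sources used here. With 1 time point per group, a shift in phase and a change in amplitude cannot be told apart.

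In each cell, the proteins of Arntl (BMAL1) and Clock, or Npas2 in place of Clock, pair and switch on genes through E-box sequences. Among those genes are the Per and Cry repressors, which shut the pair off, the nuclear receptors Nr1d1 and Nr1d2 (REV-ERBα and REV-ERBβ), which repress Arntl, Clock and Npas2, and the output factor Dbp. In a running clock the activator transcripts Arntl and Npas2 therefore peak at the opposite time of day from Nr1d1, Nr1d2, the Per genes and Dbp. In the kidney the clock is known for timing salt transport, drug handling and blood flow over the day.

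Library totals ran from 12165089 to 23123693 counts. Control libraries 1 and 2 carried Xist, the transcript of the inactive X chromosome, at 22402 and 19755 counts, against 11 or fewer counts in each of the other 10 libraries. Those 2 libraries, female by this measure, touch every comparison that uses Control, and the other 3 groups hold none. Gfer itself was not lower in KO than in Control (log2 difference 0.13 ± 0.20 SE, edgeR adjusted p = 0.761), nor in KO-IR than in Control-IR (0.32 ± 0.13, adjusted p = 0.0723). The Gfer count over the whole gene thus did not separate the genotypes, which are as labelled. Proximal tubule markers were abundant in all libraries, and the summed level of 8 of them was 14900 to 15600 CPM in Control, 13700 to 15400 in KO, 3700 to 9360 in Control-IR and 2450 to 3120 in KO-IR. In such bulk tissue, fewer cells of a type and less RNA per cell cannot be told apart.

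In knockout kidneys after I/R the activators Arntl, Clock and Npas2 rose with Nr1d1, Per1 and Cry1, while Nr1d2, Per2, Per3 and Dbp fell. In control kidneys Npas2 rose and Nr1d1, Nr1d2, Per3 and Dbp fell. Levels are given as CPM (counts relative to the library total, scaled between libraries by the TMM method), and differences between groups as log2 fold changes with their standard error (SE). A gene was called changed at a Benjamini-Hochberg adjusted p under 0.05 over all genes tested by edgeR. In KO-IR against KO all 10 clock genes were called, 6 higher and 4 lower, where 65.5% of all genes tested were called. In KO-IR against Control-IR 8 were called, 6 higher and 2 lower, against 46.9% of all genes. In Control-IR against Control 5 were called, 1 higher and 4 lower, against 19.4% of all genes. The median absolute log2 change of the 10 genes was 1.48 in KO-IR against KO, where that of all genes tested was 0.63. It was 1.22 against 0.48 between the injured genotypes, and 0.65 against 0.33 for I/R in controls. Without the 2 female Control libraries, in 1 fit to the other 10 chosen after seeing the data, where Control is library 3 alone and the other groups supply the spread, 3 genes were called for I/R in controls, Nr1d1 (log2 value -1.03, adjusted p = 0.0247), Nr1d2 (-0.59, 0.0247) and Dbp (-1.18, 0.0081). Npas2 (2.55, 0.0798) and Per3 (-0.63, 0.0987) were then not called.

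Arntl, whose protein BMAL1 pairs with that of Clock or Npas2, was scarce in sham kidneys. It was at 2.71, 2.20 and 2.05 CPM in Control, 0.693, 1.40 and 1.35 in KO, 4.19, 3.18 and 3.67 in Control-IR, and 25, 14 and 18.6 in KO-IR. Every KO-IR library was thus above every library of the other 3 groups, and KO was the lowest group. Arntl rose by 4.03 ± 0.30 in KO-IR against KO (edgeR adjusted p = 1.77e-06), and only 2.26% of genes tested had a larger absolute log2 change. It was 2.36 ± 0.24 higher in KO-IR than in Control-IR (adjusted p = 0.000416). The change in controls, 0.67 ± 0.24, was not called (adjusted p = 0.0833). No Control-IR library overlapped Control, which held for 43.7% of all genes tested. The counts behind these values were 11 to 54 in the sham libraries and 288 to 314 in KO-IR.

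Npas2, the stand-in for Clock, had the lowest level of the 10 genes in sham kidneys of controls. Its levels were 0.602, 0.427 and 0.443 CPM in Control, 1.26, 0.646 and 0.674 in KO, 2.10, 4.69 and 1.14 in Control-IR, and 15, 12.2 and 17.3 in KO-IR. The injured knockouts lay above all other libraries, and Control-IR library 2 was the highest of its group. Npas2 rose by 4.10 ± 0.27 in KO-IR against KO (edgeR adjusted p = 9.15e-07) and was 2.47 ± 0.42 higher than in Control-IR (adjusted p = 0.00276). It was the 1 clock gene that rose in Control-IR against Control, by 2.41 ± 0.56 (adjusted p = 0.0285). That call rested on 7 to 12 counts per Control library and was lost when any 1 of the Control libraries, or Control-IR library 1 or 2, was left out (adjusted p from 0.0546 to 0.0994).

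Clock, which encodes the main partner of BMAL1, moved least in KO-IR against KO. It was at 73.0, 82.0 and 82.7 CPM in Control, 83.3, 78.9 and 82.4 in KO, 73.2, 66.9 and 80.8 in Control-IR, and 105, 97.3 and 103 in KO-IR. The first 3 groups overlapped and the injured knockouts stood above them. The rise in KO-IR was 0.31 ± 0.08 against KO (edgeR adjusted p = 0.00535) and 0.46 ± 0.10 against Control-IR (adjusted p = 0.00899). With total counts in place of TMM the latter was 0.26 and not called (adjusted p = 0.0671). On the scale of CPM per kb of exon, Npas2 stood at 0.0149 to 0.0236 of the Clock level in Control libraries and at 0.359 to 0.482 in KO-IR libraries.

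**Figure D1:**
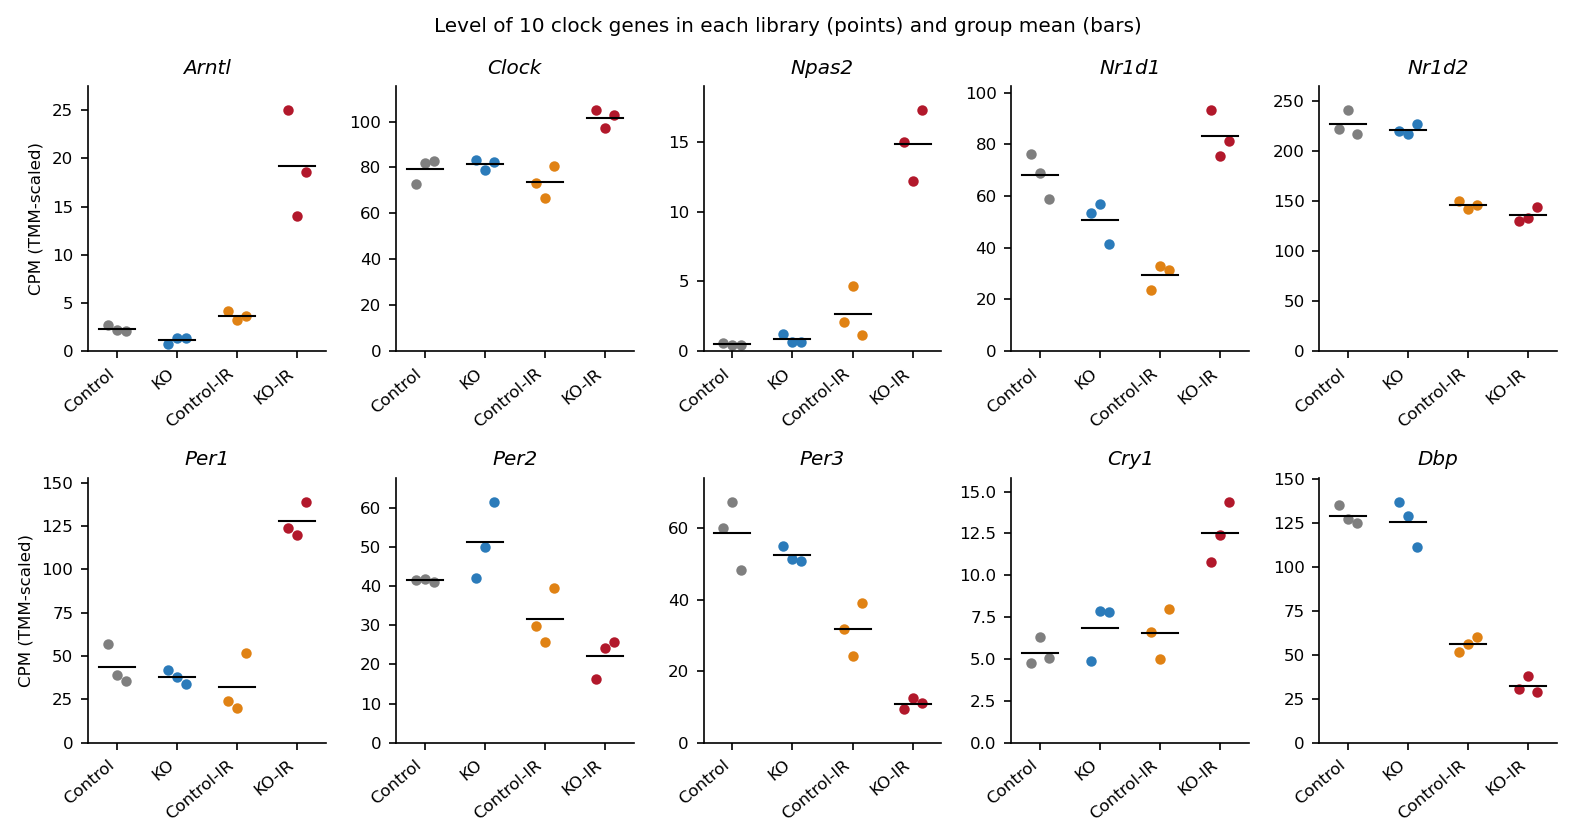
Each point is 1 library and each bar a group mean, on a linear axis in TMM-scaled CPM that starts at 0, with 1 panel per clock gene. Arntl and Npas2 lie near 0 in the sham groups and highest in KO-IR, Per1 and Nr1d1 also peak in KO-IR, and Dbp, Per3 and Nr1d2 are low in both injured groups.

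The nuclear receptor repressors Nr1d1 and Nr1d2, which usually cycle together, parted in the injured knockouts. Nr1d1 was at 76.2, 68.8 and 58.8 CPM in Control, 53.5, 56.9 and 41.6 in KO, 23.5, 33.0 and 31.3 in Control-IR, and 93.2, 75.3 and 81.4 in KO-IR. Nr1d1 was thus lower in all 3 injured control libraries than in every library of the other groups. The injured knockouts lay above KO, which was itself below Control, and they overlapped Control, against which they were not tested. It fell by 1.21 on the log2 scale (SE 0.15) in Control-IR against Control (edgeR adjusted p = 0.00638), rose by 0.71 ± 0.13 in KO-IR against KO (adjusted p = 0.000682) and was 1.51 ± 0.15 higher in KO-IR than in Control-IR (adjusted p = 0.000353). Nr1d1 was therefore called in opposite directions by I/R in the 2 genotypes. The test of that difference, the knockout by I/R interaction, gave 1.94 ± 0.22 (adjusted p = 0.000146).

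Nr1d2 was at 222, 241 and 217 CPM in Control, 220, 217 and 227 in KO, 150, 142 and 146 in Control-IR, and 130, 133 and 144 in KO-IR. Both injured groups lay below both sham groups and overlapped each other. Nr1d2 fell by 0.63 (SE 0.10) in Control-IR against Control (edgeR adjusted p = 0.013) and by 0.71 (SE 0.08) in KO-IR against KO (adjusted p = 3.97e-05). The call in controls was lost without Control library 1 (adjusted p = 0.0613) or Control library 2 (0.0668). The difference between the injured genotypes was -0.11 ± 0.10 (adjusted p = 0.358). With total counts in place of TMM it was -0.32 and called (edgeR adjusted p = 0.0245). As counts per kb of exon, Nr1d1 stood at 0.477 to 0.603 of Nr1d2 in Control, 0.322 to 0.462 in KO, 0.274 to 0.408 in Control-IR and 0.995 to 1.26 in KO-IR. Nr1d1 shares 263 of its exon bases with the opposite-strand gene Thra, and whether the counting used strand is not given in the sources used here. Thra itself fell by 0.64 (SE 0.15) in Control-IR against Control (edgeR adjusted p = 0.0272), where Nr1d1 fell too. Its log2 values were -0.34 ± 0.09 in KO-IR against KO (adjusted p = 0.00873), where Nr1d1 rose, and 0.22 ± 0.15 against Control-IR (adjusted p = 0.25), the second not called.

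The Per genes, whose proteins close the negative loop with the cryptochromes, parted in the same way. Per1 was at 57.0, 38.8 and 35.4 CPM in Control, 42.1, 37.8 and 33.9 in KO, 23.8, 19.9 and 51.8 in Control-IR, and 124, 120 and 139 in KO-IR. The injured knockouts were far above the rest, and Control-IR library 4 was apart from the other 2 of its group. Per1 rose by 1.75 ± 0.10 in KO-IR against KO (edgeR adjusted p = 4.7e-07) and was 2.00 ± 0.33 higher than in Control-IR (adjusted p = 0.00239). In Control-IR against Control the value was -0.46 (adjusted p = 0.39), and leaving out Control-IR library 4 gave a value of -1 and a call (adjusted p = 0.0236).

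Per2 was at 41.5, 41.9 and 41.0 CPM in Control, 42.1, 50 and 61.6 in KO, 29.9, 25.6 and 39.4 in Control-IR, and 16.2, 24.2 and 25.8 in KO-IR. The injured knockouts were the lowest group but overlapped Control-IR. Per2 fell by 1.21 (SE 0.18) in KO-IR against KO (edgeR adjusted p = 0.000244). Against Control-IR its value was -0.52 ± 0.22 and not called (adjusted p = 0.0827), whereas leaving out Control-IR library 2 gave -0.66 and a call (adjusted p = 0.0323). With total counts it was -0.72 and called (adjusted p = 0.0209). For I/R in controls Per2 was at -0.39 (adjusted p = 0.121), and at -0.57 with a call when Control-IR library 4 was left out (adjusted p = 0.0176).

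Per3 was at 60.2, 67.5 and 48.4 CPM in Control, 55.0, 51.5 and 50.8 in KO, 31.7, 24.3 and 39.1 in Control-IR, and 9.39, 12.4 and 11 in KO-IR. The fall was stepwise between groups, sham, injured control and injured knockout, with no overlap between these 3 levels. Per3 fell by 2.26 (SE 0.12) in KO-IR against KO (edgeR adjusted p = 2.19e-07), by 0.88 (SE 0.20) in Control-IR against Control (adjusted p = 0.0261), and was lower by 1.54 on the log2 scale, that is -1.54 ± 0.20, in KO-IR than in Control-IR (adjusted p = 0.000932). The call in controls was lost without Control library 1 (adjusted p = 0.0897), Control library 2 (0.0955) or Control-IR library 1 (0.0783).

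Set against each other within a library, where no scaling enters, Per1 counts per kb of exon were 0.897 to 1.43 times those of Per2 in Control, 0.572 to 1.04 in KO, 0.809 to 1.37 in Control-IR and 5.15 to 7.97 in KO-IR. Against Per3 the ratio was 0.981 to 1.62 in Control, 1.14 to 1.31 in KO, 1.28 to 2.26 in Control-IR and 16.5 to 22.6 in KO-IR. The 3 Per genes thus stood at similar levels in 3 of the groups and apart in the injured knockouts.

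**Figure D2:**
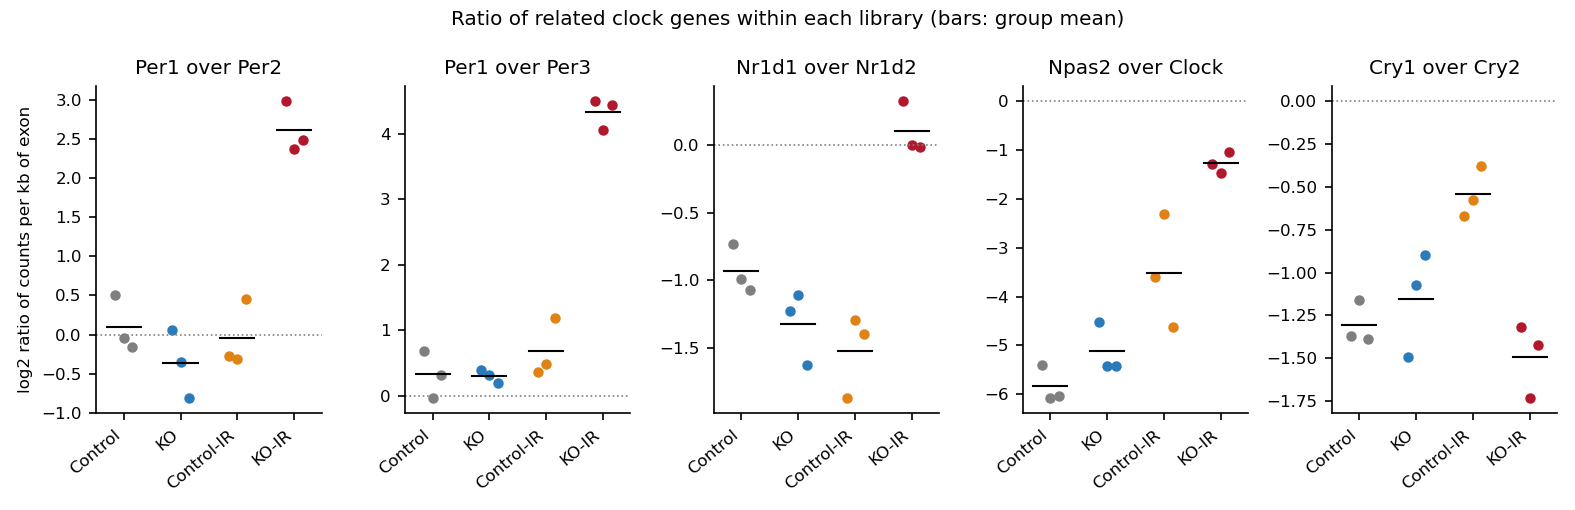
Log2 ratio of counts per kb of exon between related clock genes within each library (points) with group means (bars), where 0 (dotted) is an equal level. In KO-IR, Per1 exceeds Per2 and Per3 and Nr1d1 draws level with Nr1d2, whereas the ratio of Cry1 to Cry2 is highest in Control-IR.

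Cry1, the cryptochrome that peaks late and represses BMAL1 with CLOCK, was at 4.76, 6.29 and 5.04 CPM in Control, 4.85, 7.85 and 7.79 in KO, 6.60, 5.01 and 7.96 in Control-IR, and 10.8, 12.4 and 14.4 in KO-IR. It was highest in the injured knockouts, and the other 3 groups overlapped. Cry1 rose by 0.87 ± 0.21 in KO-IR against KO (edgeR adjusted p = 0.00404) and was 0.94 ± 0.21 higher than in Control-IR (adjusted p = 0.00906). In controls I/R gave 0.29 (adjusted p = 0.392).

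Dbp, a transcription factor that carries the rhythm to output genes through D-boxes, was low in every injured kidney. It was at 135, 127 and 125 CPM in Control, 137, 129 and 111 in KO, 51.7, 56.2 and 60.3 in Control-IR, and 30.5, 37.9 and 28.7 in KO-IR. Sham groups overlapped, and the injured groups lay below them and apart from each other. Dbp fell by 1.20 (SE 0.10) in Control-IR against Control (edgeR adjusted p = 0.00235) and by 1.96 (SE 0.13) in KO-IR against KO (adjusted p = 7.31e-07). The log2 difference between the injured genotypes was -0.80 ± 0.13 (adjusted p = 0.00226). Dbp shares 18.0% of its exon bases with the opposite-strand gene Sphk2. Sphk2 rose by 0.70 ± 0.14 in KO-IR against KO (adjusted p = 0.00164) and was 0.69 ± 0.14 higher than in Control-IR (adjusted p = 0.00596), and its value in Control-IR against Control, where Dbp also fell, was -0.03 ± 0.10 (adjusted p = 0.868).

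**Figure D3:**
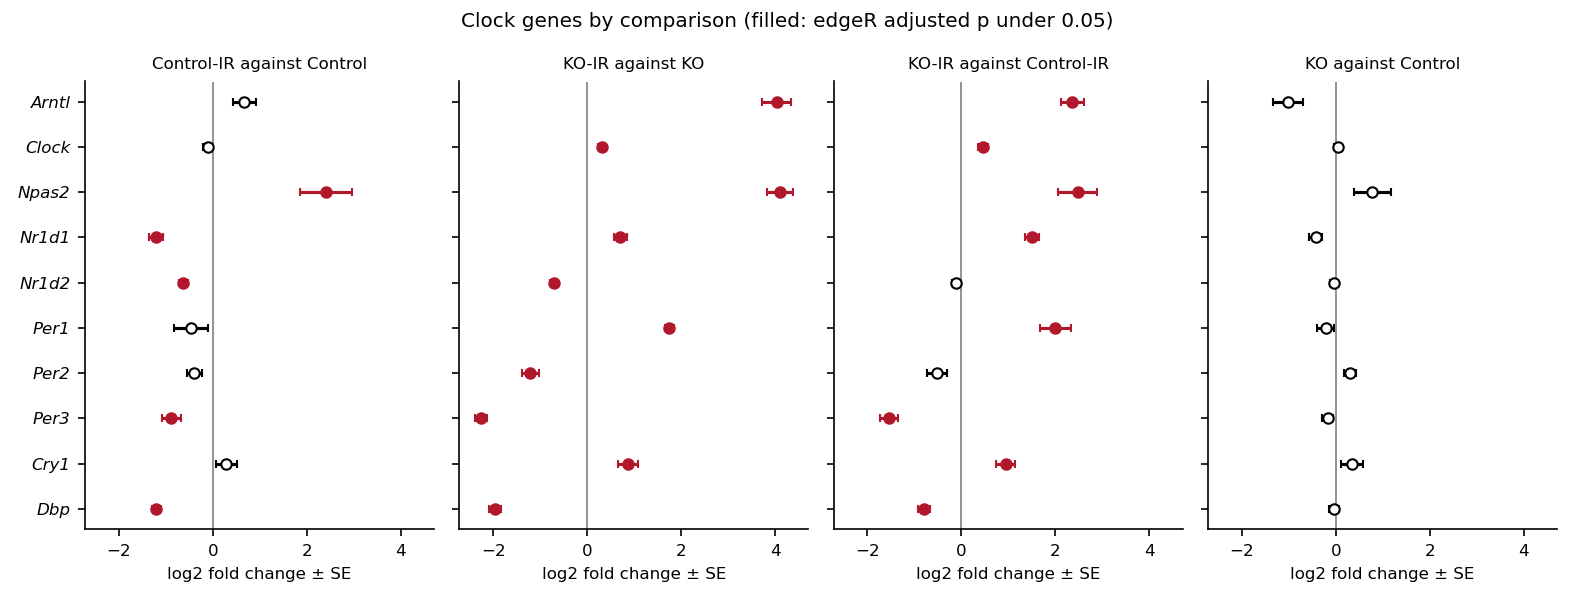
Log2 fold change with SE (bars) of each clock gene in 4 comparisons, filled where edgeR's adjusted p was under 0.05. All 10 genes are filled in KO-IR against KO, 8 in KO-IR against Control-IR, 5 in Control-IR against Control and 0 in KO against Control.

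Sham knockouts and sham controls were compared to see whether the genotype moved the clock without injury. None of the 10 genes was called by edgeR (0 of 10, with 0% of the 15291 genes tested called). At an unadjusted p under 0.05 stood 2 of the 10, Arntl at -1.01 ± 0.32 (adjusted p = 0.221) and Nr1d1 at -0.43 (adjusted p = 0.227), and 16.8% of all genes tested. DESeq2 called 0 of the 10 clock genes and 458 genes in all. Without Control library 3 Nr1d1 was called by edgeR, at -0.52 (adjusted p = 0.0328). That fit holds only the 2 female Control libraries, so genotype and sex are wholly confounded in it. Over all alternatives the Nr1d1 value ran from -0.56 to -0.21. Npas2 was at 0.78 (adjusted p = 0.356), and the other 7 genes ran from -0.21 to 0.35 on the log2 scale. Here Control held 2 female libraries and KO none, so genotype and sex are partly confounded.

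Whether I/R acted differently on the clock genes in the 2 genotypes was tested by the interaction over all 12 libraries. Of the 10 genes 7 were called, 4 higher and 3 lower, where 30.6% of all genes tested were called. The largest were Arntl (3.38 ± 0.39, edgeR adjusted p = 0.000157), Per1 (2.22 ± 0.41, adjusted p = 0.00224) and Nr1d1 (1.94 ± 0.22). Per3 at -1.36 ± 0.24 (adjusted p = 0.00164) and Dbp at -0.75 ± 0.17 (adjusted p = 0.00594) fell further in knockouts than in controls. Npas2 at 1.70 ± 0.69 (adjusted p = 0.08), Cry1 at 0.59 (adjusted p = 0.177) and Nr1d2 at -0.07 (adjusted p = 0.673) were not called, although Npas2 was at 2.38 and called when Control-IR library 2 was left out (adjusted p = 0.00464), and was called by DESeq2 on all 12 libraries (1.70, adjusted p = 0.0356). The calls of Clock (0.43 ± 0.13, adjusted p = 0.0249) and Per2 (-0.81 ± 0.27, adjusted p = 0.0387) were lost without single libraries, that of Clock without Control library 2, Control-IR library 1, KO libraries 2 or 4, or KO-IR library 4. That of Per2 was lost without any 1 of 9 libraries and kept without Control-IR library 2, KO library 1 or KO-IR library 4. Without the 2 female libraries, where Control is library 3 alone and is assumed to vary like the other groups, 5 genes were called, Arntl, Nr1d1, Per1, Per3 and Dbp. This test shares its libraries with the comparisons above.

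As a single reading per library, the mean log2 CPM of the activators Arntl, Clock and Npas2 was set against that of Nr1d1, Nr1d2, Per1, Per2, Per3 and Dbp. Their difference was -4.11 ± 0.08 (SD, n = 3) in Control, -4.11 ± 0.06 in KO, -2.36 ± 0.51 in Control-IR and -0.63 ± 0.29 in KO-IR. The sham groups could not be told apart on this reading, and the injured groups did not overlap them or each other. Dbp counts per Arntl count were 49.8, 57.6 and 61.2 in Control, 198, 92.3 and 82.1 in KO, 12.3, 17.7 and 16.5 in Control-IR, and 1.22, 2.72 and 1.55 in KO-IR. This ratio, unlike the difference of the arms, did not overlap between the sham groups and was higher in KO, where Arntl was lowest. Both readings were nearest to equal in KO-IR. They are not corrected for exon length, so their distance from 0 or 1 is no comparison of levels, and with Arntl and Npas2 alone against Dbp, Nr1d1 and Nr1d2 the difference in KO-IR was -2.11 ± 0.32.

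**Figure D4:**
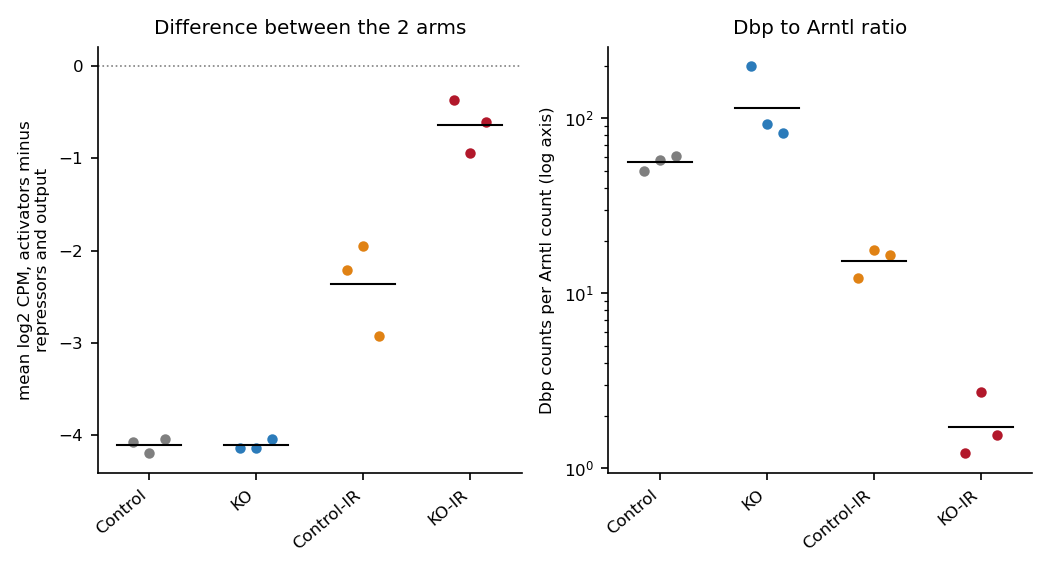
The left panel plots, per library (points), the mean log2 CPM of Arntl, Clock and Npas2 minus that of Nr1d1, Nr1d2, Per1, Per2, Per3 and Dbp, with group means (bars) at -4.11, -4.11, -2.36 and -0.63. The right panel plots Dbp counts per Arntl count on a log axis with geometric means (bars), between 1.22 and 2.72 in KO-IR and at 12.3 or more elsewhere.

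Ranked by CPM per kb of exon, which allows genes to be compared, the order in Control was Dbp (43.1 ± 1.72 SD) and Nr1d2 (41.9 ± 2.32), which differed by less than their spread, then Nr1d1 (22.1 ± 2.84). Per1 (7.77), Per2 (7.09), Per3 (6.11) and Clock (5.77) followed and differed from each other by less than the SD of Per1 (2.06), and Cry1 (1.61), Arntl (0.308) and Npas2 (0.102) were lowest. In KO-IR the order was Nr1d1 (27.1 ± 2.96), Nr1d2 (25.1 ± 1.35) and Per1 (22.7 ± 1.76) in front, then Dbp (10.8), Clock (7.42), Per2 (3.77), Cry1 (3.75), Npas2 (3.10), Arntl (2.55) and Per3 (1.14). Nr1d1 and Nr1d2 there differed by less than their spread, as did Per2 (SD 0.876) and Cry1 (0.551), and Npas2 (0.538) and Arntl (0.738). Cry1 and Npas2 differed by more than the SD of either. Dbp thus went from the front to the fourth place, and Per3 from the middle to the last.

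BMAL1 with its partners binds E-boxes and Dbp binds D-boxes, and the start regions of the 4 clock genes that held an E-box, its variant or a D-box are shown. Sequences are the 250 bases before the start in RefSeq (GRCm38.p6), read 5′ to 3′ on the strand of the gene. Of the 10 genes 9 had an entry, and Per2 had none. Capitals mark matches, on either strand, to the E-box CACGTG, its variant CACGTT, the D-box TTATGTAA or the nuclear receptor half-site AGGTCA. The first 3 below rose in KO-IR and the last fell, and a link between motif and direction was not tested. They lie at chr11:69098699-69098948 (+ strand), chr10:85185055-85185304 (- strand), chr11:98775378-98775627 (- strand) and chr4:151044666-151044915 (- strand).
Per1: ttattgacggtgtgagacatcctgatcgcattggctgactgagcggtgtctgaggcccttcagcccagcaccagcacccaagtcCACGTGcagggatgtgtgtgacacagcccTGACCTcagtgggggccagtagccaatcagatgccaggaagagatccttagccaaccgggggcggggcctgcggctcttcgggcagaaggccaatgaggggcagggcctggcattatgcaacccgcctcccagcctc
Cry1: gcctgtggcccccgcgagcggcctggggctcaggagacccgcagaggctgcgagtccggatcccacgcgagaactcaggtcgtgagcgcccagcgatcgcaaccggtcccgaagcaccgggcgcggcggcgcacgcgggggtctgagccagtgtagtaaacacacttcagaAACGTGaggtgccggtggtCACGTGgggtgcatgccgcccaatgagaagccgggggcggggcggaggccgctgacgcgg
Nr1d1: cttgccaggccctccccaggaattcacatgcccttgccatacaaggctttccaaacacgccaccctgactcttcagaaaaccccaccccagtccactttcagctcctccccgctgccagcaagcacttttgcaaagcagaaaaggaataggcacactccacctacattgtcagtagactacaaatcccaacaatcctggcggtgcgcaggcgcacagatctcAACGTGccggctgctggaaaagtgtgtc
Per3: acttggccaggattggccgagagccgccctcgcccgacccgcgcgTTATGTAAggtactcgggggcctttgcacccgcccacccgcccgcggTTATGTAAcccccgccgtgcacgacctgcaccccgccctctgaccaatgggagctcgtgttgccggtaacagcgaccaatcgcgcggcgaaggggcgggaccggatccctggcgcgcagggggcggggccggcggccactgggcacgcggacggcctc

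Per1 held an E-box at -166 to -161 from the first of its 2 starts in RefSeq, the one shown, and a half-site at -137 to -132, and the window of its other start held none of the motifs. Cry1 held an E-box at -60 to -55 and the variant at -79 to -74, and Nr1d1 the variant at -28 to -23. Per3 held 2 D-boxes, at -205 to -198 and -158 to -151. Of all 32851 RefSeq windows of this length, 6.02% held CACGTG, 3.85% CACGTT, 0.819% TTATGTAA and 14% AGGTCA. Half-sites also stood before Nr1d2 and before 1 of 3 starts of Clock. The windows of Arntl, Npas2 and Dbp held none of these letters, which says nothing of sites elsewhere. The cAMP response element TGACGTCA, in 1.55% of windows, and the longer half-site TAGGTCA, which contains AGGTCA and was in 2.23%, matched before none of the 9 genes.

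Genes of the wider clock also moved in both directions. Of 17 other clock genes 16 were tested, and 13 were called in KO-IR against KO (8 higher, 5 lower, where 65.5% of all genes were called), 8 against Control-IR (5 higher, 3 lower, near the 46.9% of all genes), 5 in Control-IR against Control (1 higher, 4 lower, 19.4% of all genes) and 0 in KO against Control (0% of all genes). The PAR bZIP factors Hlf and Tef, relatives of Dbp, fell with it. In KO-IR against KO Hlf fell by 3.96 (SE 0.15) and Tef by 1.81 (SE 0.08), and in Control-IR against Control by 1.16 and 0.95. Nfil3, which represses through the same D-boxes, rose by 2.27 ± 0.33 in KO-IR against KO and was 0.84 ± 0.24 higher than in Control-IR.

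Cry2, the other cryptochrome gene, rose by 1.25 ± 0.15 in KO-IR against KO and was 1.90 ± 0.20 higher than in Control-IR (edgeR adjusted p = 0.000452). Cry1 per kb of exon stood at 0.382 to 0.448 of Cry2 in Control, 0.355 to 0.535 in KO, 0.627 to 0.767 in Control-IR and 0.302 to 0.400 in KO-IR, which overlapped both sham groups. Rora, a nuclear receptor that activates Arntl, was higher in KO-IR than in Control-IR (1.15 ± 0.14). Ciart, a repressor of the BMAL1 pair, fell by 1.44 (SE 0.17) in KO-IR against KO, and between the injured genotypes its value was 0.31 ± 0.48 (adjusted p = 0.615). The ubiquitin ligase gene Fbxl21, which acts on cryptochromes, fell by 2.04 (SE 0.24) in KO-IR against KO. Timeless, better known in replication forks, rose by 1.60 ± 0.20 in Control-IR against Control and was lower in KO-IR than in Control-IR (-2.85 ± 0.22).

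**Figure D5:**
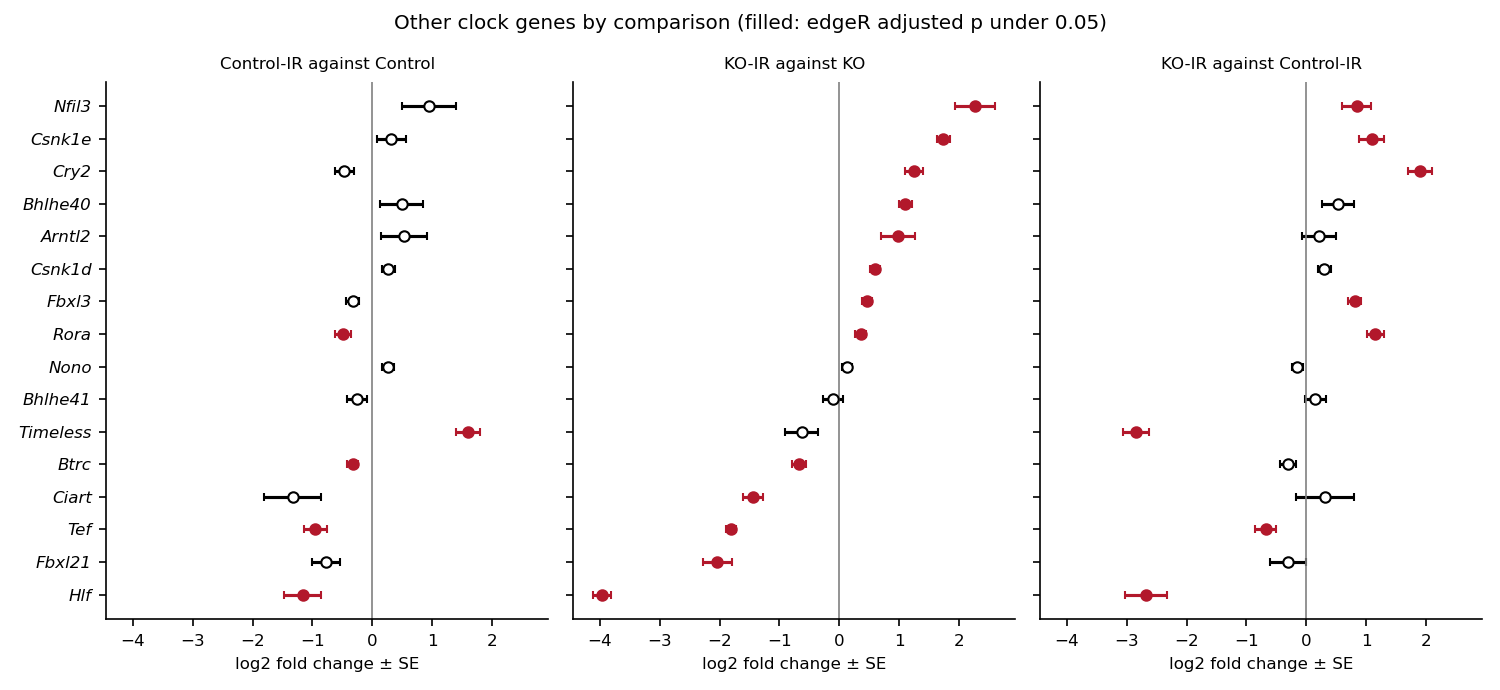
Log2 fold change with SE (bars) of 16 other clock genes in 3 comparisons, ordered by KO-IR against KO and filled where edgeR's adjusted p was under 0.05. Hlf lies lowest and Nfil3 highest in KO-IR against KO, and Timeless lies on opposite sides of 0 in the outer panels.

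Per1 is also known as a direct target of the glucocorticoid receptor and of cAMP signalling, so 2 lists of such genes are given beside it. Of 8 glucocorticoid-responsive genes 7 were called in KO-IR against Control-IR (46.9% of all genes), 6 higher and 1 lower, led by Zbtb16 (4.63 ± 0.23), Errfi1 (2.05 ± 0.15) and Fkbp5 (1.81 ± 0.16). Their summed level was 978 to 1180 CPM in Control, 1230 to 1370 in KO, 641 to 823 in Control-IR and 2300 to 2620 in KO-IR, of which Errfi1 alone gave 1250 ± 28.1 (SD, n = 3) in KO-IR. Members differed, since Tsc22d3 was at 47.6 ± 8.69 CPM in KO-IR against 52.3 ± 11.2 in KO, Klf9 at 282 ± 35.1 against 289 ± 46.1, and Cdkn1c was lowest in KO-IR (9.93 ± 2.36). In Control-IR against Control 2 of the 8 were called, both lower (19.4% of all genes), and in KO-IR against KO 5, of which 4 were higher (65.5% of all genes), so these 2 counts are near the background. Of 8 immediate-early and cAMP-responsive genes all 8 rose in KO-IR against KO, 3 in Control-IR against Control and 3 in KO-IR against Control-IR, the last below the background of 46.9%. Their summed level was 60.9 to 281 CPM in Control-IR and 192 to 351 in KO-IR, and these ranges overlapped where those of Per1 did not. Of the 3 members called there, Nr4a1 (4.55 to 10.4 CPM against 18 to 41.3) and Ier2 (6.45 to 22.8 against 24.3 to 35) did not overlap either. The third, Fosb, did (0.948 to 1.72 against 0.939 to 12.4), and 5 members were not called. The part of either list in the Per1 result was not tested.

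The summed level of the injured tubule markers Havcr1, Lcn2 and Krt20 was 1060, 2610 and 551 CPM in Control-IR libraries 1, 2 and 4, and 4790 to 6310 in KO-IR. Sham libraries had 7.26 or less, and Krt20 was at 0 in 1 KO library. Within Control-IR, library 4 had the least of these markers, the most of the proximal tubule markers (9360 CPM) and the activator difference nearest to sham, at -2.93. Library 2 had the most injury markers, the least proximal tubule markers (3700 CPM) and a difference of -1.95. By Dbp counts per Arntl count, library 2 was instead the nearest to sham (17.7, against 16.5 in library 4 and 12.3 in library 1). From library 4 through 1 to 2, the order of the injury markers, Npas2 went up (1.14, 2.10 and 4.69 CPM), and Per1 (51.8, 23.8 and 19.9), Per2 (39.4, 29.9 and 25.6), Per3 (39.1, 31.7 and 24.3), Clock (80.8, 73.2 and 66.9) and Cry1 (7.96, 6.60 and 5.01) went down. Per1, Clock and Cry1 were nevertheless highest in KO-IR, where the injury markers were highest. Arntl (3.67, 4.19 and 3.18 CPM), Dbp (60.3, 51.7 and 56.2), Nr1d1 (31.3, 23.5 and 33) and Nr1d2 (146, 150 and 142) did not follow that order. These are 3 libraries, described without a test. Macrophage and leukocyte markers (10 genes) summed to 66.8 to 85.8 CPM in Control, 71.2 to 75 in KO, 89.8 to 131 in Control-IR and 78.1 to 107 in KO-IR, with Ly6g at 0 in 7 of 12 libraries and Cd79a at 0 in 2 of 3 KO-IR libraries. Within this sum the members parted, and in KO-IR against Control-IR Adgre1 (-4.37), Ptprc (-2.32) and Csf1r (-1.42) were called lower and S100a9 (1.67), S100a8 (1.5) and Cd68 (0.76) higher. Fibroblast markers (5 genes) summed to 174 to 232 CPM in Control, 103 to 201 in KO, 637 to 775 in Control-IR and 161 to 273 in KO-IR, and Col1a1 (-3.47), Col1a2 (-2.53) and Col3a1 (-2.14) were lower in KO-IR than in Control-IR. Endothelium markers (4 genes) summed to 270 to 293 CPM in Control, 281 to 305 in KO, 248 to 288 in Control-IR and 346 to 383 in KO-IR. For thick ascending limb and distal tubule (5 genes) the sums were 5690 to 7610, 5600 to 6420, 1660 to 4130 and 2220 to 2670, in the same order. The part of injury or of changed cell makeup in the clock values was not tested.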

How the data were processed

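The 12 libraries were sequenced on an Illumina platform from TRIzol RNA. Per the labels' processing notes, reads were aligned to mm10 with HISAT2 2.0.4, and the count program, annotation and strandedness are not given in the sources used here. The deposited table holds whole-number counts per Ensembl gene, neither normalized nor filtered. One Control column is numbered 3 where the sample titles have 4, and was used as a Control library by its group only. Symbols and exon lengths came from GENCODE M21.

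After filterByExpr and TMM scaling, the counts of the 6 libraries compared, or of all 12 for the interaction, entered the quasi-likelihood test of edgeR 4.0.16 in R 4.3.3. SE was taken from the F statistic. The prior count for correlations was 2. The members and lists were chosen with earlier results of these data known. Named genes were all 10 members, Ciart, Tef, Hlf, Nfil3 and Cry2, and up to 3 or 4 called genes with the largest change from each list of other clock, output, glucocorticoid-responsive and immediate-early genes. Another clock gene is not reported here and is left out of the counts. Genes named from the cell type marker lists were chosen after their values were seen. Replicates differed by 9.63 to 80.8 times sampling noise (chi-square per gene), so none was a duplicate and the spread between samples sets the precision. The labels do not say that replicates were separate mice, so p-values measure the spread between these samples. Methods were tested on simulated data. The alternatives were DESeq2 1.42.0, total-count scaling, 2 other filters, 1 fit to all libraries, a replicate block, sex, and leaving out each library. A fit without the Control libraries with Xist was added after seeing the data.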

Additional observations from a re-analysis of the deposited data

Results flagged for a closer look

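For 7 clock genes the I/R effect in KO differed from that in Control by the interaction test of edgeR (log2 difference, adjusted p over all genes). The same test called 30.6% of all genes tested. Arntl differed by 3.38 (adjusted p = 0.000157), Per1 by 2.22 (0.00224), Nr1d1 by 1.94 (0.000146) and Clock by 0.43 (0.0249), each higher in injured knockouts. Per3 differed by -1.36 (0.00164), Per2 by -0.81 (0.0387) and Dbp by -0.75 (0.00594). Nr1d1 was the member whose 2 effects were both called and had opposite signs. The Clock and Per2 values lost their call in 9 and 11 of 19 alternatives.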

How the results depend on the processing

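Of 726 alternative values for the 10 genes, 661 kept direction and side of the threshold, 37 lost the call, 12 gained it and 16 changed sign. All 10 calls of KO-IR against KO held in 13 of 13 alternatives. In Control-IR against Control the number called was 5, and 3 both with sex as a covariate and without the Control libraries that carry Xist (Nr1d1, Nr1d2 and Dbp), and 2 to 7 with 1 library left out. The females are all in Control, so both fits rest on Control library 3 alone, assumed to vary like the other groups, and are not independent of each other. In KO against Control it was 0 to 1 with 1 library left out.

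No pairing was found: residuals of 12 same-number pairs of libraries had a median correlation of -0.022 (-0.188 to 0.184), and 1 pair was over 0.1. With the replicate block the number called was 7 in Control-IR against Control, 10 in KO-IR against KO, 6 in KO-IR against Control-IR, 0 in KO against Control and 6 for the interaction, and Dbp in KO against Control was 0.02.

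With total counts the median log2 change of all genes shifted by 0.12 in Control-IR against Control, -0.21 in KO-IR against Control-IR and -0.12 in KO against Control. In KO-IR against Control-IR the clock genes called were then 5 higher and 4 lower, in place of 6 and 2, and for the interaction 3 and 3. Clock was 0.02 in Control-IR against Control and -0.08 in KO against Control. In KO against Control, uncalled values that changed sign were, with sex as a covariate, Clock -0.02, Nr1d2 0.03, Per1 0.1, Per3 0.11 and Dbp 0, and without the Control libraries that carry Xist Clock -0.03, Nr1d2 0.02, Per1 0.09 and Per3 0.1. Leaving out 1 library gave Clock -0.02 to 0.07, Per1 -0.34 to 0.03, Nr1d2 -0.07 to 0.01 and Dbp -0.1 to 0.04. The cause was not tested. Taking only Arntl and Npas2 against Dbp, Nr1d1 and Nr1d2, the arm difference was -6.89 in Control, -6.88 in KO, -4.43 in Control-IR and -2.11 in KO-IR, in the same order. Low counts limit Npas2 and Arntl in sham kidneys.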

Other observations

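Genes known to follow the clock in kidney or liver moved in both directions. Of 10 such outputs 9 were tested in KO-IR against KO and 8 were called, 2 higher and 6 lower, where 65.5% of all genes tested were called. Usp2, a deubiquitinase whose rhythm follows that of Dbp, fell by 2.95 (SE 0.21), and the heme synthesis gene Alas1 rose by 2.07 ± 0.13. The water channel gene Aqp2 fell by 1.53 (SE 0.32) and the vasopressin receptor gene Avpr2 by 1.33 (SE 0.18), both of the collecting duct, of whose 4 other listed markers 3 were called, all lower (Aqp3, Fxyd4 and Slc4a1). Between the injured genotypes 8 of 9 were called, 4 higher and 4 lower (46.9% of all genes), among them Usp2 (-1.64 ± 0.43), Alas1 (1.60 ± 0.25), Avpr2 (-1.22 ± 0.25) and the sodium channel gene Scnn1a (1.17 ± 0.27). In Control-IR against Control 3 of 10 were called, all lower (19.4% of all genes), and in KO against Control 0 were (0% of all genes).

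Over the 12 libraries and 16167 other genes, the pattern most like that of Arntl by Pearson correlation of log2 CPM was that of Rhoj (r = 0.989), then Ythdf1 (0.977) and Zfp207 (0.973). Most like Dbp were Slc38a10 (0.985), Slc5a6 (0.984) and Ppfibp2 (0.982). By Spearman correlation Rhoj stayed first for Arntl, and the 3 genes for Dbp were Ache, Uaca and Zdhhc17. Among the 10 clock genes, Dbp was most like Per3 (r = 0.95) and Nr1d2 (0.94), and opposite to Npas2 (-0.93) and Arntl (-0.92). The libraries fall into groups, so these values describe the group pattern.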
